A study of Mus musculus with 60 samples.

Results

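The 35 genes described here are enzymes of cholesterol and fatty acid synthesis that the sterol regulatory element-binding proteins (SREBPs) are known to control, together with the regulators of those factors. They were taken from a list of names that was chosen with earlier results of these data known. The shares of called genes given below are therefore not those of a list drawn blind. All 35 were found among the 35976 gene symbols of the deposited count table. By role they divide into 7 mevalonate and isoprenoid steps, 11 squalene and sterol steps, 5 SREBP regulators, 1 sterol transport protein, 3 suppliers of acetyl-CoA and NADPH, 2 enzymes of fatty acid synthesis and 6 elongases and desaturases. All 35 passed the filter on low counts in every comparison. The lowest count of any of them in any library was 139, for Idi1.

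RNA from mouse hippocampus was sequenced after depletion of ribosomal RNA in 60 libraries. The NLGF mice (genotype APP-nlgf in the labels) are a knock-in line in which the mouse App gene carries mutations of familial Alzheimer's disease, so that the altered protein is made under the gene's own promoter. The other mice are wild type (WT), and the labels name no further allele and no treatment in either genotype. Animals of 3, 8 and 24 weeks were used, and each genotype at each age had 5 libraries labelled female and 5 labelled male. The labels give neither the strain nor whether each library came from a separate animal, and the p-values therefore reflect library-to-library spread that could partly be technical.

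Cells build cholesterol from acetyl-CoA by way of mevalonate, squalene and lanosterol, and fatty acids from acetyl-CoA by way of malonyl-CoA. When sterols in the endoplasmic reticulum are low, Scap carries the SREBP precursors to the Golgi, where cleavage frees the part that enters the nucleus and raises transcription of these enzymes. When sterols are high, the Insig proteins hold Scap back. The brain makes its own cholesterol because lipoproteins of the blood do not cross the blood-brain barrier, and oligodendrocytes make it in large amounts while myelin forms after birth.

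Libraries held 17.8 M to 73.4 M counts (M, the prefix mega) with a median of 26.1 M, and 7 of the 10 NLGF libraries of week 3 (females 1, 4 and 5 and males 2 to 5) were deeper than all others, at 54 M to 73.4 M against at most 35.2 M. No WT library was of that kind. The 7 also differed in the RNA they held: Bc1, a short non-coding RNA made in neurons, was at 1740 to 5730 CPM in them, against 2.27 to 59.5 CPM in the other 53 libraries. The library NLGF W8 female 5 stood apart from its set: 61.3% of 1184 genes that differed between weeks 8 and 3 in WT lay nearer to the WT mean of week 3 than to that of week 8, against 7.18% to 20.7% in the other NLGF libraries and 5.74% to 41.2% in the WT libraries of week 8. At week 3 that share was 32.4% to 85.8% in NLGF and 70% to 95% in WT. The genes were picked, and both means taken, from the WT libraries themselves. This draws each WT library toward its own week but not the NLGF libraries, so the shares of the 2 genotypes are not measured alike. In NLGF W3 female 4 (45%), male 4 (49.2%) and male 5 (32.4%), all among the 7 deeper, more of these genes lay nearer to week 8. The library WT W8 female 1 had the highest level of its set for Srebf1, Srebf2, Scap and Fasn. The age field of NLGF W8 female 1 says 3 weeks while its title says week 8, and it was kept with week 8. In 1 library the counts of sex-linked genes went against the sex label. App itself averaged 1610 ± 116 CPM in NLGF libraries of week 3, against 1720 ± 85.1 CPM in WT ones (SD, n = 10 each), and the 9 markers of hippocampal neurons summed to 2230 to 3600 CPM over all libraries, with none of them at 0 in every library of a set.

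Levels are given in CPM, each gene's share of the scaled library total. Divided by the length of the exons, the highest level among the 35 was that of Scd2, a stearoyl-CoA desaturase that places the double bond in oleate, with 288 ± 9.7 CPM per kilobase in WT at week 24 (SD, n = 10). Fasn, the fatty acid synthase, followed at 55.8 ± 4.72 CPM per kilobase, and Hmgcs1, which makes HMG-CoA from acetyl-CoA, at 49.6 ± 5.34. Fads1, Scd1 and Srebf2 came next at 47.7 ± 2.55, 46.1 ± 5.27 and 42.6 ± 4.29 CPM per kilobase, so the levels from Hmgcs1 to Srebf2 lay within their spread of each other. The lowest were Idi1 at 3.26 ± 0.259, Lss at 2.79 ± 0.46 and Tm7sf2 at 1.89 ± 0.271 CPM per kilobase. Within a set of 10 libraries the median coefficient of variation of the 35 genes lay between 9.22% (NLGF at week 24) and 14.2% (WT at week 8). The widest were Pmvk and Srebf1 in WT at week 8, at 25.8% and 23.5%.

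Strand use in the deposited counts is not stated, and exons of 13 of the 35 genes overlap exons of another annotated gene, in 6 of them a protein-coding gene. Fdft1 shares 18.3% of its exon bases with Ctsb on the opposite strand, Fdps shares 26.7% with the gene model Gm43738 on its own strand, and Tm7sf2 shares 12.1% with Vps51. Hmgcs1 shares 12.1% with the antisense model Gm48342 and Idi1 9.22% with Gm48574. Reads from such bases cannot be told apart between the genes, and the neighbouring paralogs Scd1 and Scd2 on chromosome 19 may share reads.

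Promoters of 28 of the 35 genes were found in the RefSeq table (build GRCm38.p6) and were searched on both strands. The sterol regulatory element, the site to which SREBPs bind, was searched as CACNCCAC and in the longer form TCACNCCAC, which contains the first. The shorter form was present in 3 of the 28 genes, Acat2, Hmgcs1 and Insig1, and in 6.24% of all 32851 promoter windows, so its share among the members' 37 windows, 8.11%, was near that of all promoters. The longer form was present only in Hmgcs1 among these genes and in 1.24% of all windows. The 3 promoters are printed because they hold a match and their genes were among those with lower counts in NLGF at week 3. The windows of Cyp51, Idi1, Mvd, Mvk and Pmvk, which were also called lower there, held no match. For Fdft1 and Sqle, called lower as well, no promoter was found. Capitals mark each match on either strand.
Acat2 (chromosome 17, 12960676 to 12960975, minus strand): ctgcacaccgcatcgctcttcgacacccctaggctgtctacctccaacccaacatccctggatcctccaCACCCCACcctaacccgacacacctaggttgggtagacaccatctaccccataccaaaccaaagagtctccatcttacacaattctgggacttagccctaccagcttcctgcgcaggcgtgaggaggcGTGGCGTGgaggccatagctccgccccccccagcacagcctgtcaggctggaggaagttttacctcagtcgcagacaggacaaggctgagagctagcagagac
Hmgcs1 (chromosome 13, 119690101 to 119690400, plus strand): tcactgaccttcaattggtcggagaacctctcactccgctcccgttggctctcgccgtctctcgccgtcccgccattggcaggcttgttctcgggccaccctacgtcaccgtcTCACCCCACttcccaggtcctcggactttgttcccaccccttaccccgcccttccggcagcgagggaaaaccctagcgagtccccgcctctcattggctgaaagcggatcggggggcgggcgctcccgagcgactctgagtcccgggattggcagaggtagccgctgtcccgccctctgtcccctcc
Insig1 (chromosome 5, 28071162 to 28071461, plus strand): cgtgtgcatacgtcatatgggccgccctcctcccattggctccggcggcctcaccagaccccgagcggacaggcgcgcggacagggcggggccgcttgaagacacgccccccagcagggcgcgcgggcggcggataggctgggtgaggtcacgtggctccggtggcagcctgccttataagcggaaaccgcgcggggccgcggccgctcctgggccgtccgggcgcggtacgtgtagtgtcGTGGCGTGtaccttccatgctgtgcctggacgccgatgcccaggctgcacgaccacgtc
The matches lie 181 and 53 bases before the annotated start of Acat2, 136 bases before that of Hmgcs1 (137 for the longer form) and 9 bases before that of Insig1. The letters CCAAT, the box bound by NF-Y, were present in 64.9% of the members' windows and in 37.4% of all windows. The letters GGGCGG, a site of Sp1, were present in 73% and 35.7%, and the E-box CACGTG in 18.9% and 7.15%. A match of letters is a description of the window and not evidence of binding.

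With all 10 NLGF libraries of week 3, sterol synthesis genes were lower in NLGF than in WT hippocampus. By count this was most of all among the first steps of the pathway. Of the 35 genes, 10 were called lower and 0 higher (adjusted p below 0.05 in edgeR's quasi-likelihood test), against 2.11% lower and 1.67% higher among all 16605 genes tested, 3.78% in all. The 10 were 6 of the 7 mevalonate and isoprenoid steps, 3 of the 11 squalene and sterol steps and 1 of the 5 SREBP regulators. None of the genes of sterol transport, acetyl-CoA supply, fatty acid synthesis, elongation or desaturation was called. Taking NLGF over WT, the 35 genes had a median log2 fold change of -0.10 and all genes tested one of 0.01. The weight on the first steps was not the same without the 7 deeper libraries. With the 3 other NLGF libraries Mvk, Pmvk, Mvd and Fdps were at -0.08, -0.13, -0.11 and -0.02. Acat2, Hmgcs1 and Idi1 were then at -0.20, -0.34 and -0.56, and the later step Msmo1 was at -0.49. In bulk tissue, fewer cells of a type and less RNA per cell cannot be told apart.

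Among the mevalonate steps, Acat2, the cytosolic thiolase that joins 2 acetyl-CoA molecules, had 23.5 to 31.4 CPM in NLGF (median 25.8) and 30.8 to 41.8 CPM in WT (median 35.2). In 9 of 10 NLGF libraries it was below every WT library, and its log2 fold change was -0.39 ± 0.0727 (SE, adjusted p = 0.015). Hmgcs1 had 269 to 379 CPM in NLGF (median 339) and 321 to 509 CPM in WT (median 409), so the ranges overlapped, but all 10 NLGF libraries were below the WT median (-0.30 ± 0.0756, adjusted p = 0.0338). Mvk, mevalonate kinase, averaged 20.5 ± 2.22 CPM in NLGF, against 24.8 ± 3.11 CPM in WT (SD, n = 10 in each genotype), or -0.27 ± 0.0709 (adjusted p = 0.0398). The next kinase, Pmvk, had 15.1 to 29.7 CPM in NLGF (median 17.8) and 22.7 to 35.7 CPM in WT (median 25.6). This was the largest fold change of the 35 genes, -0.51 ± 0.111 (adjusted p = 0.023), and 9 of 10 NLGF libraries were below every WT library. Mvd, which decarboxylates mevalonate diphosphate, was lower by a log2 fold change of -0.37 ± 0.0915 (adjusted p = 0.0308). Idi1, the isopentenyl diphosphate isomerase, had 10.3 to 15.3 CPM in NLGF (median 13.5) and 11.6 to 22.2 CPM in WT (median 19), with all 10 NLGF libraries below the WT median (-0.48 ± 0.108, adjusted p = 0.023). Fdps, farnesyl diphosphate synthase, was the mevalonate step that was not called (-0.29 ± 0.0897, adjusted p = 0.0661). The summed level of these 7 genes was 402 to 516 CPM in NLGF (median 486) and 503 to 698 CPM in WT (median 592).

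**Figure D1:**
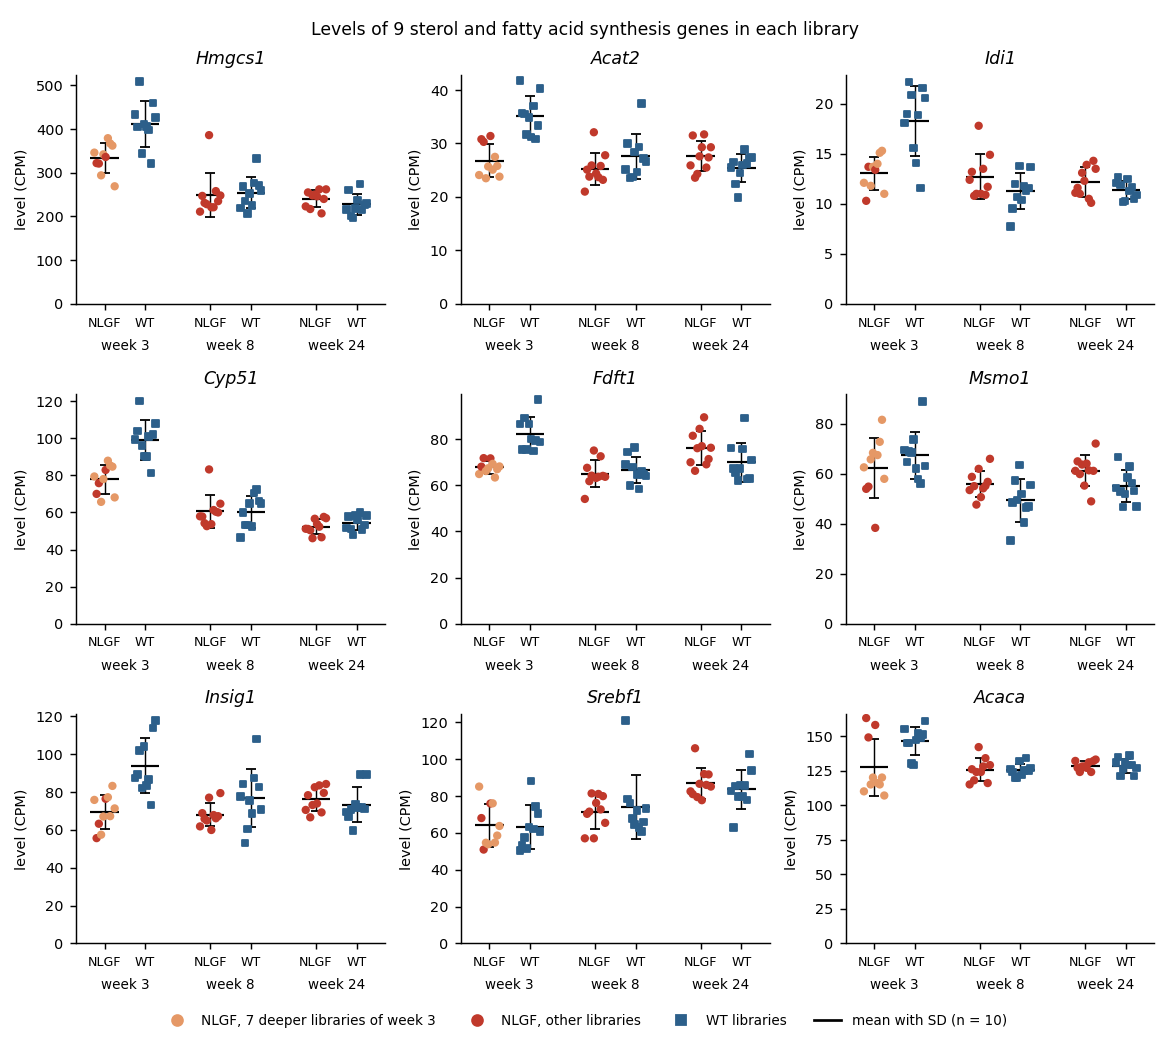
Levels of 9 of the genes in CPM (vertical axis, from 0), with 1 point per library, NLGF (circles) left of WT (squares) at weeks 3, 8 and 24; lines are means and bars SD (n = 10 each), and the paler circles are the 7 deeper NLGF libraries of week 3. At week 3 the NLGF libraries had 269 to 379 CPM of Hmgcs1 and the WT libraries 321 to 509 CPM, while Srebf1 averaged 64.2 and 63.2 CPM.

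Of the squalene and sterol steps, those that make and oxidise squalene and the lanosterol demethylase were lower, and the later steps were not called. Fdft1, squalene synthase and the first enzyme committed to sterols, was the 1 gene of the 35 whose groups did not overlap, with 63.4 to 71.8 CPM in NLGF (median 67.8) and 74.8 to 97.3 CPM in WT (median 79.7). Among all 16605 genes tested, 0.0422% did not overlap at week 3, and 0.012% were below WT in this way. The log2 fold change of Fdft1 was -0.28 ± 0.0521 (adjusted p = 0.015). Sqle, squalene epoxidase, averaged 83.7 ± 3.85 CPM in NLGF and 96.5 ± 6.87 CPM in WT (-0.20 ± 0.048, adjusted p = 0.0269). Cyp51, the lanosterol demethylase, had 65.7 to 87.9 CPM in NLGF (median 78.7) and 81.2 to 120 CPM in WT (median 100), a log2 fold change of -0.35 ± 0.0698 (adjusted p = 0.0171). All 10 NLGF libraries were below the WT median for both Sqle and Cyp51. Lss, lanosterol synthase, which acts between them, was at -0.23 ± 0.0787 and was not called (adjusted p = 0.095). The 7 later steps ran from -0.12 for Hsd17b7 to 0.05 for Tm7sf2, with Dhcr7, the last reductase, at -0.05 ± 0.0832 (adjusted p = 0.752).

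Insig1, which holds Scap in the endoplasmic reticulum and is itself an SREBP target, was the SREBP regulator that was called. It had 55.7 to 83.3 CPM in NLGF (median 69.3) and 73.1 to 118 CPM in WT (median 88.5), and its log2 fold change was -0.44 ± 0.0856 (adjusted p = 0.0151). The genes of the factors themselves differed by less than the spread: Srebf1, which mainly drives fatty acid genes, averaged 64.2 ± 11.7 CPM in NLGF and 63.2 ± 11.7 CPM in WT (0.03 ± 0.0949, adjusted p = 0.871), and Srebf2, which mainly drives cholesterol genes, 312 ± 35.2 and 321 ± 43.2 CPM (-0.04 ± 0.0727, adjusted p = 0.813). Scap was at 0.08 ± 0.0854 (adjusted p = 0.6) and Insig2 at -0.04 ± 0.0575 (adjusted p = 0.76). RNA levels do not measure the cleavage of SREBP proteins. Stard4, a carrier of cholesterol between membranes that is also an SREBP target, was at -0.20 ± 0.0772 (adjusted p = 0.134).

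On the fatty acid side, 0 of 11 genes were called at week 3. Acly and Acss2, which supply acetyl-CoA from citrate and from acetate, were at -0.18 ± 0.0634 and -0.20 ± 0.0777, and Me1, the malic enzyme that supplies NADPH, at 0.12 ± 0.0854. Acaca, which makes malonyl-CoA, averaged 127 ± 20.9 CPM in NLGF and 147 ± 10.2 CPM in WT (-0.20 ± 0.0778, adjusted p = 0.129), and Fasn 671 ± 102 and 717 ± 114 CPM (-0.08 ± 0.0861). The elongases and desaturases ran from -0.05 for Scd2 to 0.13 for Fads2, which opens the synthesis of polyunsaturated fatty acids.

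The 7 deeper NLGF libraries and the 3 others were each set against the 10 WT libraries, a division chosen after the libraries' depths had been seen. With the 7 alone, 16 of the 35 genes were called lower, against 21.5% called in either direction among 17084 genes. With the 3 alone, 0 were called in either direction among the 35 genes or among all 17187 genes by edgeR, and 11 of the 35 had an unadjusted p under 0.05. Of these, Scap (0.27), Fasn (0.22) and Fads2 (0.26) were higher in NLGF and the rest lower. The share of all genes under that p was not counted for this fit. Hmgcs1, Idi1, Cyp51, Insig1, Fdft1 and Sqle lay at similar values in both fits: Idi1 at -0.46 ± 0.121 with the 7 (adjusted p = 0.00932) and -0.56 ± 0.173 with the 3 (adjusted p = 0.318), Insig1 at -0.41 ± 0.0958 (adjusted p = 0.00439) and -0.52 ± 0.136 (adjusted p = 0.283), Cyp51 at -0.34 ± 0.0787 (adjusted p = 0.00376) and -0.38 ± 0.104 (adjusted p = 0.306), and Hmgcs1 at -0.29 ± 0.0882 (adjusted p = 0.0224) and -0.34 ± 0.111 (adjusted p = 0.332).

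Other members differed between the deeper and the other libraries within NLGF itself. In a contrast of the 7 deeper with the 3 other NLGF libraries, added after seeing the data, 8 of the 35 genes were lower and 3 higher in the deeper ones, against 9.23% lower and 9.2% higher (18.4% in all) among 16605 genes. The lower ones were Acat2 (-0.28 ± 0.0942), Pmvk (-0.55 ± 0.123), Mvd (-0.35 ± 0.119), Fdps (-0.36 ± 0.114), Acly (-0.26 ± 0.08), Acss2 (-0.40 ± 0.082), Acaca (-0.45 ± 0.071) and Fasn (-0.41 ± 0.0987). Msmo1 (0.51 ± 0.134), Sc5d (0.28 ± 0.0959) and Elovl5 (0.27 ± 0.0934) were higher. Acaca had 107 to 120 CPM in the 7 deeper NLGF libraries and 149 to 163 CPM in the 3 others, and 129 to 161 CPM in WT. Msmo1 had 57.9 to 81.5 CPM in the 7, 38.3 to 54.8 CPM in the 3 and 56 to 88.9 CPM in WT. The share of all genes whose ranges lie apart between the 7 and the 3 was not counted. For Pmvk the fold change over WT was -0.70 ± 0.0901 with the 7 (adjusted p = 1.95e-05) and -0.13 ± 0.135 with the 3 (adjusted p = 0.732), and for Acat2 -0.50 ± 0.0708 (adjusted p = 6.44e-05) and -0.20 ± 0.101 (adjusted p = 0.467). Since no WT library was of the deeper kind, genotype and library kind cannot be told apart with the 7 libraries.

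**Figure D2:**
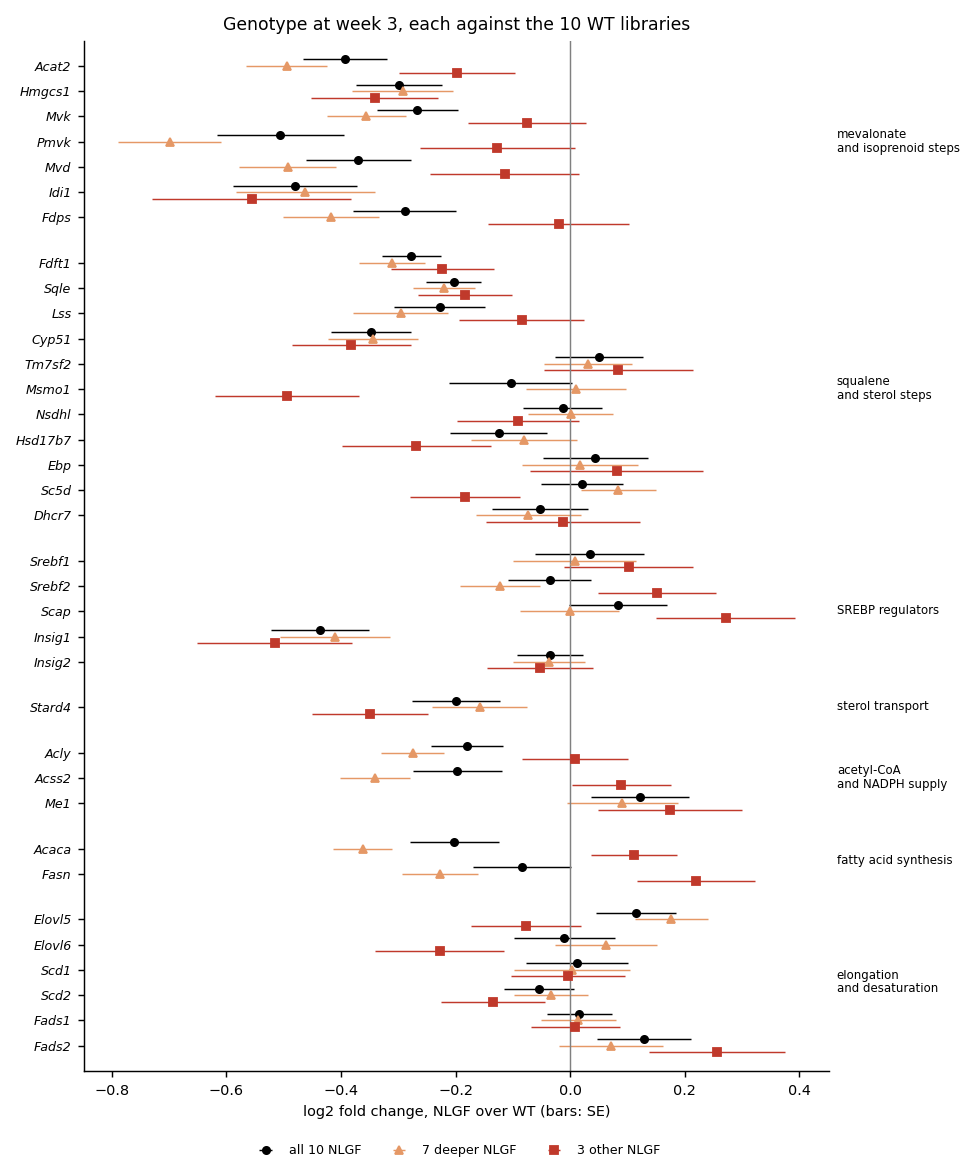
Log2 fold change of NLGF over WT at week 3 for each of the 35 genes (rows, by role), with all 10 NLGF libraries (black circles), the 7 deeper (triangles) and the 3 others (squares), each against the 10 WT libraries; bars are SE. Idi1 lies at -0.48, -0.46 and -0.56 in the 3 fits, while Acaca lies at -0.20, -0.36 and 0.11.

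Single libraries moved the count at week 3. It was 4 without NLGF W3 female 4, 5 without NLGF W3 female 5, 6 without NLGF W3 male 5 and 6 without WT W3 female 3. It was 8 without NLGF W3 male 2, whose counts go against its sex label. In these fits, in that order, 122, 102, 276, 305 and 257 of all genes were called, against 628 with every library. Over the 20 fits that each left out 1 library, the count of members ran from 4 to 15. Acat2, Fdft1, Cyp51 and Insig1 kept their call with each of the 20 libraries left out in turn. In these 20 fits the call was lost 13 times for Mvk, 11 for Hmgcs1, 8 for Mvd, 5 for Sqle, 2 for Pmvk and 1 for Idi1. The libraries NLGF W3 female 4 and male 5 were among those nearer to week 8 in their age genes, and the part of that in the result was not tested.

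Genes of neighbouring pathways were called in part at week 3, against 2.11% lower and 1.67% higher among all 16605 genes tested. Of 7 other sterol and isoprenoid genes 1 was lower and 0 higher, and of 10 genes of SREBP processing and sterol-regulated degradation and 13 genes of sterol uptake, transport and esterification 0 were called. Of 9 tested genes of LXR targets, sterol export and oxysterols 1 was higher, Cyp7b1, an oxysterol hydroxylase, at 0.36 ± 0.0864 (adjusted p = 0.0289). Of 27 other fatty acid genes 2 were lower, Acsl3, which activates long-chain fatty acids (-0.31 ± 0.0827, adjusted p = 0.0412), and Mcat, of mitochondrial fatty acid synthesis (-0.29 ± 0.0783, adjusted p = 0.0433). The 12 markers of mature oligodendrocytes, such as Mbp and Mog, summed to 6150 to 12100 CPM in NLGF (median 10100) and 7050 to 17900 CPM in WT (median 9830), and 0 of 12 were called, with a median log2 fold change of -0.18. With the log2 of their summed level as a covariate, chosen after seeing the data, 9 of the 35 genes were called lower in NLGF. Mvk was no longer called (-0.24 ± 0.0733, adjusted p = 0.0605). Among all genes 719 were called with this covariate, against 628 without it. The 8 markers of choroid plexus had a median log2 fold change of 1.03 with 0 called, and summed to 152 to 10600 CPM in NLGF and 44.7 to 4530 CPM in WT. Of 8 astrocyte markers 1 was lower and 0 higher, with a median of -0.04. Of 6 microglial markers 1 was higher and 0 lower, with a median of 0.10. The part of the choroid plexus, astrocyte and microglial markers in the result was not tested.

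At week 8 no member passed the test between the genotypes. By edgeR 0 of the 35 genes and 0 of all 16494 genes (0%) were called, and DESeq2 called 0 of the 35. In edgeR 1 of the 35 and 1292 of all 16494 genes had an unadjusted p under 0.05. The median log2 fold change was 0, within a range of -0.22 to 0.18. The smallest p-values were those of Me1 (0.16 ± 0.0743, adjusted p = 0.633), Pmvk (-0.22 ± 0.108, adjusted p = 0.635) and Msmo1 (0.18 ± 0.0897, adjusted p = 0.635). Among the regulators, Srebf1 was at -0.06 ± 0.104, Srebf2 at -0.03 ± 0.0752, Scap at -0.04 ± 0.0832, Insig1 at -0.17 ± 0.0908 and Insig2 at 0.03 ± 0.059. The summed level of the 18 enzymes of the mevalonate and sterol steps was 720 to 1110 CPM in NLGF (median 787) and 731 to 923 CPM in WT (median 832). The highest of these was NLGF W8 female 5, with 386 CPM of Hmgcs1 against at most 258 CPM in the other 9 NLGF libraries. Without it 0 of the 35 genes were called as well, and Hmgcs1 was at -0.12 ± 0.0691 in place of -0.03 ± 0.0992.

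At week 24, 0 of the 35 genes were called between the genotypes by edgeR, against 0.8% higher and 0.0787% lower among all 16508 genes, 0.878% in all. Unadjusted p in edgeR was under 0.05 for 4 of the 35 and for 1484 of all 16508 genes, and DESeq2 called 0 of the 35. The smallest p was that of Fdps, with 36.6 to 51.1 CPM in NLGF (median 45.7) and 33.9 to 45 CPM in WT (median 38.1). In 6 of 10 NLGF libraries Fdps was above every WT library, and its log2 fold change was 0.21 ± 0.0625 (adjusted p = 0.169). Without WT W24 male 2 it was called (adjusted p = 0.0476). Hsd17b7 (0.10 ± 0.0404, adjusted p = 0.47) and Msmo1 (0.15 ± 0.0683, adjusted p = 0.5) followed. Srebf1 was at 0.05 ± 0.067, Srebf2 at -0.01 ± 0.0549, Scap at -0.09 ± 0.0427, Insig1 at 0.06 ± 0.0588 and Insig2 at -0.09 ± 0.0595. Of the 10 genes of LXR targets, sterol export and oxysterols 1 was higher in NLGF at week 24, Ch25h, which makes 25-hydroxycholesterol, at 1.03 ± 0.238 (adjusted p = 0.0353), and of 6 microglial markers 4 were higher.

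**Figure D3:**
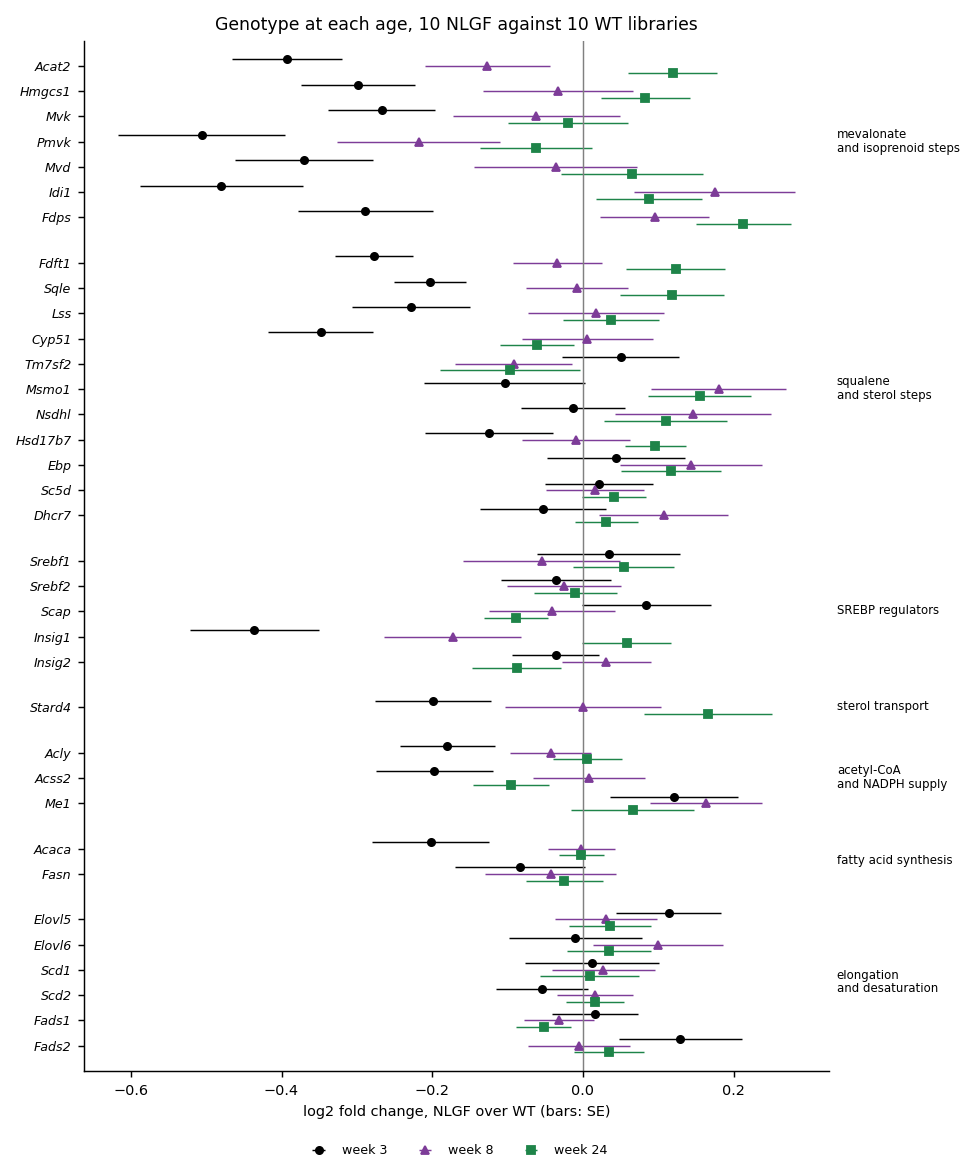
Log2 fold change of NLGF over WT for each of the 35 genes (rows, by role) at week 3 (circles), week 8 (triangles) and week 24 (squares), with 10 libraries of each genotype at each age; bars are SE. The values range from -0.51 to 0.13 at week 3, from -0.22 to 0.18 at week 8 and from -0.10 to 0.21 at week 24.

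The genotype effect itself differed between ages for some of these genes, in a fit over all 60 libraries. For week 24 minus week 3, 6 of the 35 genes were called with a higher value at week 24, against 0.901% higher and 0.248% lower (1.15% in all) among all 17752 genes. They were Acat2 (0.52 ± 0.102, adjusted p = 0.00214), Fdft1 (0.40 ± 0.0827, adjusted p = 0.00318), Fdps (0.50 ± 0.112, adjusted p = 0.00831), Insig1 (0.50 ± 0.116, adjusted p = 0.0157), Idi1 (0.57 ± 0.138, adjusted p = 0.0199) and Sqle (0.32 ± 0.0881, adjusted p = 0.0468). The other regulators were at 0.02 for Srebf1, 0.03 for Srebf2, -0.17 for Scap and -0.05 for Insig2. For week 8 minus week 3, 1 of the 35 was called, Idi1 at 0.66 ± 0.139 (adjusted p = 0.0209), against 0.152% higher and 0.0282% lower among all genes, 0.18% in all. Idi1 had 10.8 to 17.8 CPM in NLGF and 7.76 to 13.8 CPM in WT at week 8, so that the genotypes overlapped at week 8 as they did at week 3. The NLGF median was above that of WT at week 8 (12.1 and 11.5 CPM) and below it at week 3 (13.5 and 19 CPM). The 17.8 CPM was that of NLGF W8 female 5. Without that library the difference for Idi1 was 0.59 ± 0.134 (adjusted p = 0.0481). For week 24 minus week 8, 0 of the 35 were called by edgeR or DESeq2, against 0.31% of all genes. Before adjustment 1 of the 35 and 684 of all 17752 genes had a p under 0.05 in edgeR.

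With the 7 deeper libraries left out, 0 of the 35 genes were called in any of the 3 differences. Among all genes 0 were then called for week 8 minus week 3, against 32 with all libraries. For week 24 minus week 3 it was 15, against 204, and for week 24 minus week 8 it was 61, against 55. For week 8 minus week 3, Idi1 was then at 0.73 ± 0.182 (adjusted p = 0.352). For week 24 minus week 3, Fdps was at 0.23 (adjusted p = 0.5), against 0.50 with all libraries, and Acat2 at 0.32 (adjusted p = 0.361), against 0.52. Insig1 (0.57, adjusted p = 0.192), Idi1 (0.64, adjusted p = 0.249), Fdft1 (0.34, adjusted p = 0.291) and Sqle (0.30, adjusted p = 0.351) lay nearer to their values with all libraries. Of the 6 genes called for week 24 minus week 3, Sqle lost its call in 36 of 60 fits that each left out 1 library (adjusted p up to 0.0907), and the other 5 lost it in 0. The count for week 8 minus week 3, which is Idi1 alone with all libraries, was 0 without NLGF W3 female 1 and 2 without NLGF W3 female 2 or NLGF W3 male 1. In these fits 8, 127 and 168 of all genes were called, against 32. The comparisons of NLGF with WT at the 3 ages and these differences share their libraries.

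In WT hippocampus, sterol synthesis genes were lower at week 8 than at week 3 over most of the pathway. Of the 35 genes 18 were lower at week 8 than at week 3 and 0 were higher, against 4.51% lower and 2.63% higher (7.14% in all) among 16844 genes. They included 6 of 7 mevalonate and isoprenoid steps, 9 of 11 squalene and sterol steps, Acaca, Elovl6 and Scd2, and none of the 5 SREBP regulators. The median log2 fold change was -0.29 over the 35 genes and 0.01 over all genes tested.

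Cyp51 had 46.5 to 72.4 CPM in WT at week 8 (median 62.5) and 81.2 to 120 CPM at week 3 (median 100), with no overlap, and its log2 fold change was -0.72 ± 0.075 (adjusted p = 6.56e-08). Sqle was the other gene whose groups did not overlap, with 61.2 to 76.9 CPM at week 8 and 83.9 to 107 CPM at week 3 (-0.52 ± 0.0606, adjusted p = 3.78e-07). Among all 16844 genes, 0.457% did not overlap between these ages, and 0.374% were lower in this way at week 8. Hmgcs1 averaged 255 ± 36.1 CPM at week 8 and 411 ± 53.2 CPM at week 3 (-0.70 ± 0.0802, adjusted p = 3.25e-07). In 9 of 10 libraries of week 8 it was below every library of week 3. Elovl6, which extends palmitate to stearate, averaged 61.6 ± 7.52 CPM at week 8 and 93.3 ± 11.9 CPM at week 3 (-0.60 ± 0.0801, adjusted p = 4.57e-06). It was the fatty acid gene that fell most. Fdps (-0.55 ± 0.0803, adjusted p = 1.73e-05), Idi1 (-0.70 ± 0.104, adjusted p = 2.33e-05) and Dhcr7 (-0.52 ± 0.0784, adjusted p = 3.11e-05) fell as well. So did Lss (-0.55 ± 0.0836, adjusted p = 3.85e-05), Hsd17b7 (-0.44 ± 0.0767, adjusted p = 0.000235) and Acaca (-0.22 ± 0.0427, adjusted p = 0.000752). The other 8 called, Ebp, Mvd, Msmo1, Scd2, Fdft1, Acat2, Mvk and Sc5d, ran from -0.55 to -0.21 with adjusted p from 0.000827 to 0.0339.

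The regulators and most fatty acid genes were not called between weeks 8 and 3 in WT. Srebf2 averaged 301 ± 54.2 CPM at week 8 and 321 ± 43.2 CPM at week 3 (-0.09 ± 0.0855, adjusted p = 0.598), Srebf1 74.4 ± 17.5 and 63.2 ± 11.7 CPM (0.24 ± 0.106, adjusted p = 0.187), and Insig1 76.9 ± 15.3 and 94 ± 14.7 CPM (-0.30 ± 0.0954, adjusted p = 0.0521). Fasn was at -0.17 ± 0.0917 (adjusted p = 0.322), Scd1 at -0.06 ± 0.0725 and Fads1, a desaturase of polyunsaturated fatty acids, at -0.05 ± 0.0522. Without WT W8 female 1, the library high in Srebf1, Srebf2, Scap and Fasn, 22 of the 35 genes were lower and 0 higher. Among all genes 2029 were called without it, against 1202 with it.

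No member passed the test in WT between weeks 24 and 8. For week 24 over week 8, 0 of the 35 genes were called by edgeR or DESeq2, against 0.0356% higher and 0.243% lower among all genes, 0.279% in all. Unadjusted p in edgeR was under 0.05 for 1 of the 35 and for 1935 of all 16844 genes. The smallest p-values were those of Mvd (-0.25 ± 0.113, adjusted p = 0.395), Hmgcs1 (-0.16 ± 0.0799, adjusted p = 0.444) and Cyp51 (-0.14 ± 0.0748, adjusted p = 0.456).

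Over the whole interval, 23 of the 35 genes were lower in WT at week 24 than at week 3 and 1 was higher, against 11.3% lower and 10.6% higher (21.9% in all) among 16844 genes. All 7 mevalonate and isoprenoid steps were lower. Mvd averaged 14.8 ± 2.76 CPM at week 24 and 25.8 ± 4.26 CPM at week 3 (-0.80 ± 0.113, adjusted p = 3.24e-06), and Hmgcs1 228 ± 24.5 and 411 ± 53.2 CPM (-0.86 ± 0.0804, adjusted p = 1.57e-09). Of the 11 squalene and sterol steps 10 were lower, with Cyp51 at -0.86 ± 0.075 (adjusted p = 3.35e-10), Sqle at -0.58 ± 0.0606 (adjusted p = 1.42e-08) and Dhcr7 at -0.61 ± 0.0783 (adjusted p = 6.33e-07). Nsdhl, a sterol dehydrogenase, was the exception at -0.16 ± 0.0935 (adjusted p = 0.236). For 6 of the 35 genes (Acat2, Hmgcs1, Sqle, Cyp51, Dhcr7 and Elovl6) the libraries of week 24 lay below all those of week 3, as did those of 1.92% of the 16844 genes, while 0.896% lay above.

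The regulators divided over that interval. Srebf1 averaged 83.7 ± 10.5 CPM at week 24 and 63.2 ± 11.7 CPM at week 3 and was the gene called higher (0.41 ± 0.106, adjusted p = 0.00509). All 10 libraries of week 24 were above the median of week 3. Insig1 was lower (-0.36 ± 0.0954, adjusted p = 0.006), while Srebf2 (-0.07 ± 0.0853, adjusted p = 0.615), Scap (0.04 ± 0.0914, adjusted p = 0.783) and Insig2 (0.15 ± 0.0632, adjusted p = 0.0839) were not called. Of the suppliers, Acss2 (-0.30 ± 0.0676, adjusted p = 0.00135) and Acly (-0.14 ± 0.0522, adjusted p = 0.0498) were lower. Elovl6 (-0.69 ± 0.0801, adjusted p = 1.12e-07), Acaca (-0.19 ± 0.0427, adjusted p = 0.00185) and Scd2 (-0.17 ± 0.0499, adjusted p = 0.0162) were lower too. Scd1, Fads1, Fads2, Elovl5, Fasn, Me1 and Stard4 were not called.

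**Figure D4:**
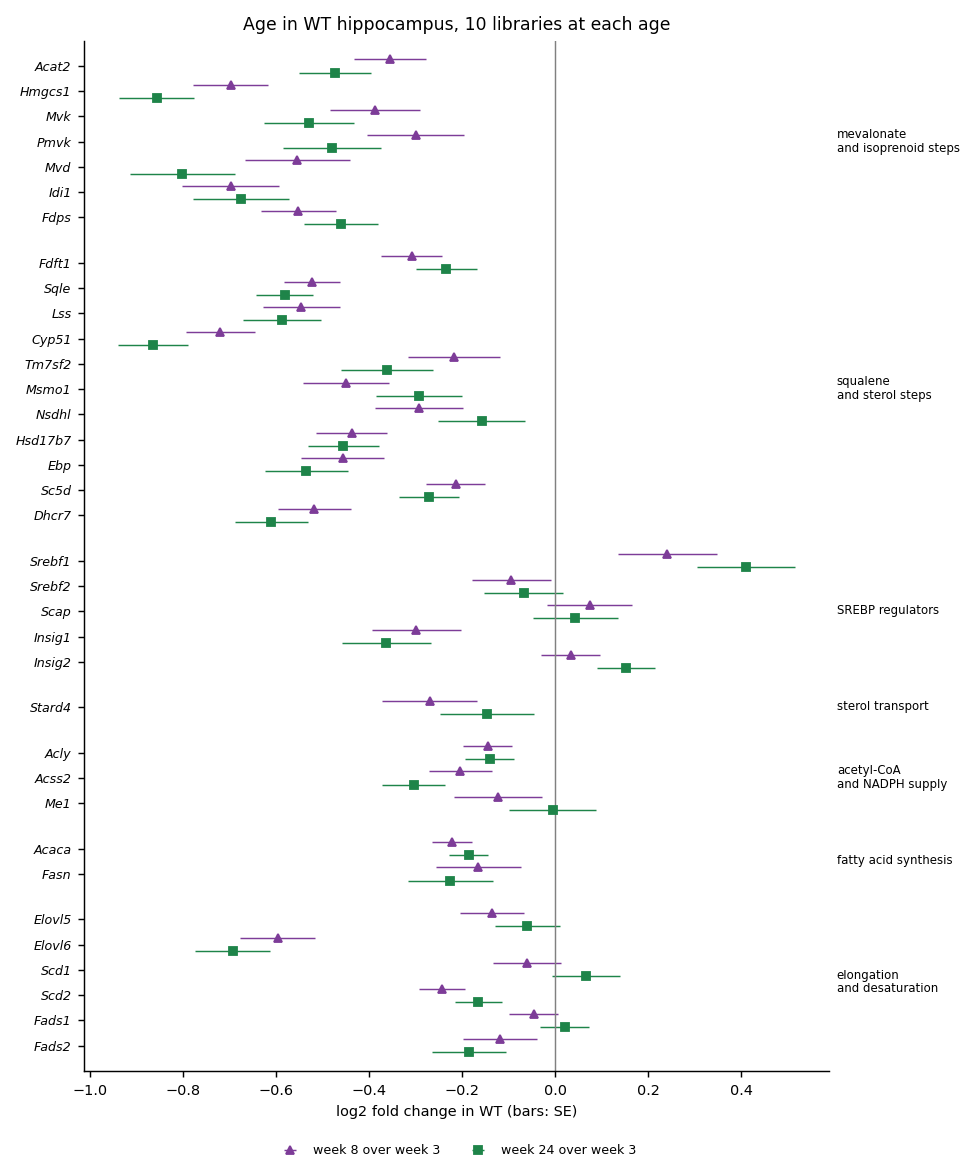
Log2 fold change in WT of week 8 over week 3 (triangles) and of week 24 over week 3 (squares) for each of the 35 genes (rows, by role), 10 libraries at each age; bars are SE. Cyp51 lies at -0.72 and -0.86, Fads1 at -0.05 and 0.02, and Srebf1 at 0.24 and 0.41.

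In NLGF, Hmgcs1 averaged 334 ± 33.9 CPM at week 3, 249 ± 50.4 CPM at week 8 and 241 ± 19.2 CPM at week 24, and in WT 411 ± 53.2, 255 ± 36.1 and 228 ± 24.5 CPM (SD, n = 10 each). These means of Hmgcs1 were highest at week 3 in both genotypes. Fdft1 had its highest mean at week 24 in NLGF and at week 3 in WT, with 67.8 ± 2.66, 65 ± 5.8 and 76.2 ± 7.33 CPM in NLGF at the 3 ages, against 82.4 ± 7.32, 66.6 ± 5.67 and 70 ± 8.43 CPM in WT. The summed level of the 18 mevalonate and sterol enzymes had medians of 1000, 787 and 835 CPM in NLGF and of 1170, 832 and 767 CPM in WT at weeks 3, 8 and 24. At week 3 the NLGF range (883 to 1080 CPM) overlapped the WT range (1030 to 1350 CPM) only at its upper end.

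Genes of neighbouring pathways were called with age in part. Between weeks 8 and 3 in WT, 4.51% of all 16844 genes were lower and 2.63% higher. Of 7 other sterol and isoprenoid genes 2 were lower in WT at week 8 than at week 3 and 0 higher, and of 13 genes of sterol uptake, transport and esterification 2 were lower, among them Npc2, which takes cholesterol out of lysosomes (-0.35 ± 0.0926, adjusted p = 0.0163). Of 10 genes of SREBP processing and degradation 0 were called. Of 10 genes of LXR targets, sterol export and oxysterols 1 was higher, Abcg1, a sterol exporter (0.31 ± 0.064, adjusted p = 0.0016). Of 27 other fatty acid genes 6 were lower and 0 higher, with Gpam, the first enzyme of glycerolipid synthesis, at -0.36 ± 0.0554 (adjusted p = 3.84e-05). Elovl1, an elongase of very long chains that myelin lipids hold, was at -1.09 ± 0.168 (adjusted p = 4.25e-05).

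Markers of oligodendrocytes were lower at the later ages in the same libraries. Of 12 mature oligodendrocyte markers 11 were lower in WT at week 8 than at week 3, with a median log2 fold change of -1.28, and 10 of 12 were lower at week 24 than at week 3 (median -1.58). Their sum was 3490 to 8250 CPM in WT at week 8 (median 4790) and 7050 to 17900 CPM at week 3 (median 9830), and none of the 12 was at 0 in every library of a set. Of 10 markers of precursors and newly formed oligodendrocytes 7 were lower at week 8, and all 5 blood markers were lower, with a median of -1.54. With the log2 of the summed level of the mature markers as a covariate, chosen after seeing the data, 0 of the 35 genes were called between weeks 8 and 3 in place of 18. Among all genes 94 were called with this covariate, against 1202 without it. Cyp51 was then at -0.51 ± 0.128 (adjusted p = 0.0643), Hmgcs1 at -0.48 ± 0.141 (adjusted p = 0.132), Pmvk at -0.61 ± 0.18 (adjusted p = 0.135) and Sc5d at -0.01 ± 0.108. For week 24 over week 3, 5 of the 35 were lower with the covariate (Acat2, Hmgcs1, Pmvk, Sqle and Cyp51) and 1, Scd1, was higher (0.44 ± 0.125, adjusted p = 0.0461). For that interval 520 of all genes were called with the covariate, against 3693 without it. The markers' sums at weeks 8 and 3 overlapped only between 7050 and 8250 CPM in WT, so age and the level of these markers cannot be told apart in most of these libraries.

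**Figure D5:**
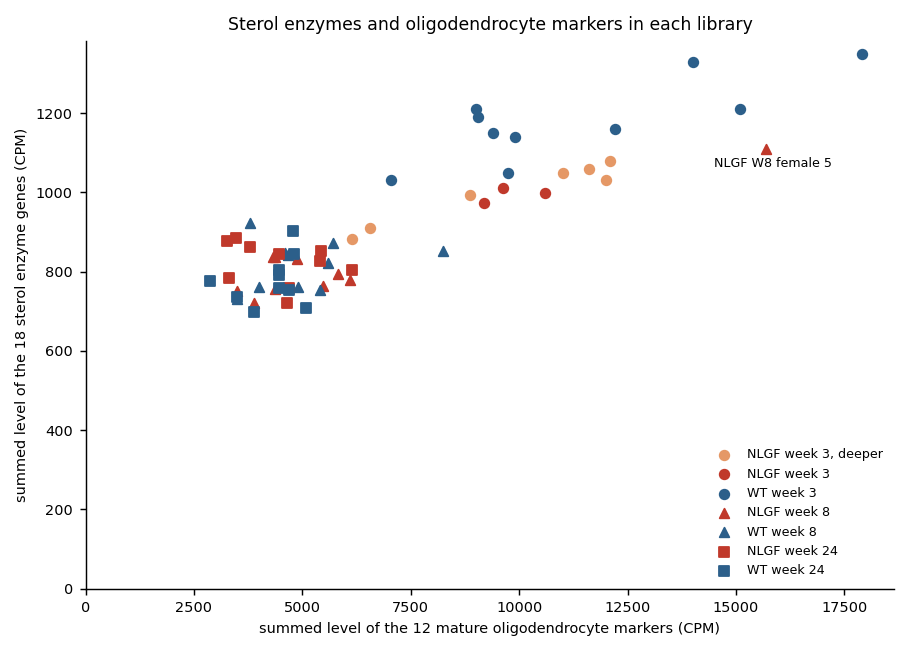
Summed level of the 18 mevalonate and sterol enzymes (vertical axis, CPM) against the summed level of the 12 mature oligodendrocyte markers (horizontal axis, CPM), with 1 point per library; circles are week 3, triangles week 8 and squares week 24, WT in blue and NLGF in red, or orange for the 7 deeper libraries. The libraries of week 3 lie at 6150 CPM of the markers or more, and all others but NLGF W8 female 5, at 15700 and 1110 CPM, lie at 8250 CPM or less.

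No member passed the test between the sexes in WT. For male over female, 0 of the 35 genes were called by edgeR or DESeq2, against 0.034% higher and 0.0284% lower among all 17626 genes, 0.0624% in all. Unadjusted p in edgeR was under 0.05 for 4 of the 35 and for 905 of all 17626 genes. The median log2 fold change was 0.04. The smallest p-values were those of Lss (0.20 ± 0.0694), Pmvk (0.23 ± 0.0865) and Mvk (0.18 ± 0.0807), each with an adjusted p of 0.869.

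The authors' deposited table of genes called between the genotypes lists 15 of the 35 genes among 2628 at week 3, 0 among 4 at week 8 and 0 among 156 at week 24. Only called genes are listed there, so no share over all genes tested can be given. If the same week 3 libraries were used, genotype and library kind cannot be told apart there either. In the authors' deposited table the 15 were all lower in NLGF at week 3, with log2 fold changes from -0.15 for Acly to -0.35 for Pmvk. Beyond the 10 genes called here, the authors' deposited table lists Acaca (-0.17), Fdps (-0.21), Acly, Lss (-0.16) and Acss2 (-0.15).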

How the data were processed

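RNA of 60 mouse hippocampus libraries was analysed from the gene counts that the authors deposited, which are whole reads per gene symbol and not normalized. Total RNA was extracted with a Monarch kit and depleted of ribosomal RNA, per the labels' protocols. FastQC, STAR, edgeR, DESeq2 and the mm10 build are named without versions, per the submitters' processing notes. Which read counter, annotation and strandedness were used is not stated in the labels or headers. The authors' deposited tables of comparisons also hold a mean normalized signal (baseMean), log2 fold changes, and p-values, and only their log2 fold changes are printed.

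Groups came from the titles. Genes were kept by filterByExpr (minimum count 10), scaled by TMM and tested with edgeR 4.0.16 (robust quasi-likelihood F-test, sex as a term, Benjamini-Hochberg adjustment over all genes tested, threshold 0.05) in R 4.3.3. Genotype tests used the 20 libraries of an age, age and sex tests the WT libraries, and the differences between ages all 60. SE is the log2 fold change divided by the square root of F. Levels are CPM on TMM-scaled totals, and per-kilobase levels use the union of exons in GENCODE M21. Tests were checked on simulated data. Alternatives were RLE scaling, DESeq2 1.42.0, other filters, a replicate block, no sex term, 1 fit of all libraries and leaving out each library. The terms for depth and oligodendrocyte markers were added after seeing the data.

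Total counts were 17.8 M to 73.4 M (M, the prefix mega). The parts of counting error and of library-to-library spread in the precision were not measured. The members and lists were chosen with earlier results of these data known. Every called member was named, with full values for those of smallest p, and regulators were given in each genotype comparison. Some genes of the other lists are counted but not reported here by name.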

Additional observations from a re-analysis of the deposited data

Results flagged for a closer look

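Of 210 sets of 10 libraries (35 genes in 6 sets), 26 had a highest or lowest library whose gap to its neighbour was a large share of the range by Dixon's test, where chance gives about 1 in 20. Of these, 10 fell on NLGF W8 female 5, the library that lay nearer to week 3 than the rest of its set. It was highest for Hmgcs1 (386 CPM, next 258), Mvk (24.8, next 19.1), Fdps (50.6, next 39.7), Sqle (85.8, next 71.5) and Lss (45.4, next 32.4). It was also highest for Cyp51 (83.2 CPM, next 64.7), Ebp (16.6, next 12.4), Dhcr7 (55.9, next 39.6), Elovl6 (93.6, next 69.3) and Scd2 (1810, next 1560).

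A further 6 fell on WT W8 female 1. It was highest for Srebf1 (121 CPM, next 78.5), Srebf2 (431, next 340), Scap (206, next 132) and Fasn (1010, next 639), and lowest for Sc5d (47.9, next 59.3) and Insig2 (27, next 32.9).

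The other 10 were spread over as many libraries. At week 3 they were Pmvk in NLGF W3 male 1 (29.7 CPM, next 21.7) and Stard4 in NLGF W3 male 4 (32.2, next 26.2). At week 8 they were Stard4 in NLGF W8 male 5 (34 CPM, next 26) and Acat2 in WT W8 male 3 (37.5, next 30). In NLGF at week 24 they were Srebf1 in female 3 (106 CPM, next 92), Scap in male 2 (138, next 125) and Scd2 in male 4 (1850, next 1640). In WT at week 24 they were Fdft1 in male 2 (89.1 CPM, next 76.2), Sc5d in female 2 (70.9, next 62.8) and Scd2 in female 1, the lowest of its set (1440, next 1550).

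The genotype effect differed between ages by the test of the difference itself for 6 genes. For week 8 minus week 3 it did for Idi1 (0.66 on the log2 scale). For week 24 minus week 3 it did for Acat2 (0.52), Idi1 (0.57), Fdps (0.50), Insig1 (0.50), Fdft1 (0.40) and Sqle (0.32). None of these was called without the 7 deeper libraries of week 3, and Sqle was not called in 36 of 60 fits that each left out 1 library.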

How the results depend on the processing

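At week 3 the 10 members called lower in NLGF became 0 without the 7 deeper libraries, 16 with only those 7 of the NLGF libraries, and 0 once library kind entered as a term. Leaving out each library gave 4 to 15. For week 24 minus week 3, 0 members were called without the 7 in place of 6 (5 to 7 with each library left out), and for week 8 minus week 3, 0 in place of 1 (0 to 2). At week 24 leaving out each library gave 0 to 1. With the oligodendrocyte covariate, WT week 8 over week 3 had 0 in place of 18 (17 to 22 with each library left out) and week 24 over week 3 had 6 in place of 24 (23 to 26). Scd2 then had the opposite sign, at 0.02 and 0.14. The cause was not tested. RLE scaling, DESeq2 and the other filters, no sex term (run for genotype and WT age) and 1 fit of all libraries (run for genotype) kept each count of members within 1.5 times, while all genes called at week 3 numbered 628, against 1486 with DESeq2, 351 with no filter and 1904 in 1 fit of all libraries.

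Libraries of the same number and sex deviated together (correlation over 0.1) in 4 of 10 pairs at week 3, 3 of 10 at week 8 and 6 of 10 at week 24, so the numbers were not taken as pairing. With the replicate block, 5 members were called at week 3 (165 genes in all), 1 at week 24 (Fdps, adjusted p = 0.0475), and 2 for week 8 minus week 3.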
